A study of Mus musculus with 9 samples.

Results

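OMVSSDC and ZJDC, groups of RNA-seq libraries made from DC2.4, a dendritic cell line of the mouse, were compared directly with each other, gene by gene. The comparison takes 6 of the 9 libraries of the series and the 11472 of 21959 genes in the table that had at least 10 read counts in at least 3 of those 6 libraries. Within it, the genes described are those in which all 3 OMVSSDC libraries lay beyond all 3 ZJDC libraries. They were 1355 genes with every OMVSSDC library above every ZJDC library (11.8%) and 1401 with every OMVSSDC library below (12.2%), together 24% of the genes tested. Genes in which OMVSSDC replicates 1 and 2 lay beyond ZJDC while replicate 3 lay among the ZJDC libraries are given apart, because replicate 3 stood near ZJDC.

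DC2.4 is an immortalised line derived from mouse bone marrow that is used as a model of dendritic cells. The study asked how engineered extracellular vesicles act on immune-related genes of these cells. Total RNA was isolated with Trizol, and the libraries were prepared for Illumina sequencing. The groups OMVSSDC, ZJDC and PBSDC, with 3 libraries each, are known by their names only: the labels give neither the composition of the agent behind each name nor a dose, a time or an age, and no genotype beyond the cell line. All groups share this cell line. The labels do not say whether replicates came from separate cultures, so the p-values measure the spread between these libraries, which may be technical. PBSDC entered no test of OMVSSDC against ZJDC except where a fit of all 9 libraries is named. Its values are given beside the results, because it is the third group on the same scale.

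A dendritic cell that meets a microbial or vesicle-borne stimulus signals through pattern recognition receptors to NF-kB and to the interferon regulatory factors. Type I interferon then drives a set of antiviral genes, together with the machinery that loads peptides on MHC class I. Type I interferon is also known to lower cholesterol synthesis in myeloid cells, a pathway run by the SREBP transcription factors, and maturing cells commonly divide less. These are background to the gene lists used here and not results of these libraries. In bulk RNA, fewer cells of a type and less RNA per cell cannot be told apart.

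The 6 libraries held 12784931 to 18388959 counts, so that 3 counts corresponded to 0.165 to 0.24 CPM. CPM is the count relative to the library's total, here scaled by the trimmed mean of M values (TMM) so that libraries can be compared. On the first principal component, which carried 67.6% of the variance, OMVSSDC lay at 33.6, 30.9 and -16.4 and ZJDC at -21.6, -18.4 and -8.17. OMVSSDC replicate 3 thus lay within the ZJDC range on the main axis. On the second component (11.7% of the variance) it lay at 19.9, apart from ZJDC at -3.21, -8.76 and -8.75. OMVSSDC 1 and 2 lay there at -0.41 and 1.25. Divided by its degrees of freedom, the chi-square of gene counts was 1.87 for OMVSSDC 1 against 2. It was 59.3 and 61.8 for each of them against OMVSSDC 3. For OMVSSDC 3 against the ZJDC libraries it was 7.43 to 10.3, and among the ZJDC libraries 2.51 to 8.59. Myeloid markers were present in every library, with Ptprc at 878 to 974, Csf1r at 537 to 604 and Irf8 at 157 to 205 CPM. Defining markers of dendritic cell subsets were low or at 0: Itgax had 3.43 to 4.91 CPM, Flt3 at most 0.295 CPM, and Clec9a had no count. Heart and brain markers, of which 3 of 20 (Aqp4, Myl7 and Neurod1) were at 0 in all 6 libraries, summed to 7.30, 7.02 and 23 CPM in OMVSSDC 1, 2 and 3 and to 27.8, 22.2 and 20.0 CPM in ZJDC. Fibroblast and endothelial markers (1 of 14, Emcn, at 0) summed to 15.6, 14.6 and 35.9 CPM against 21.6, 26.4 and 19.8 CPM. Both sets were thus lowest in OMVSSDC 1 and 2. Granulocyte and erythroid markers (0 of 14 at 0) summed to 11.7 CPM in OMVSSDC 1 and to 0.514 to 2.01 CPM in the other 5. Epithelial markers (3 of 12 at 0: Cldn3, Krt18 and Krt19) summed to 0.856 to 4.15 CPM, and lymphoid markers (6 of 13 at 0, among them Cd3e and Cd3g) to 2.48 to 4.38 CPM. The part of these traces in the results below was not tested.

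With all 6 libraries in edgeR's quasi-likelihood fit, 0 of 11472 genes passed an adjusted p of 0.05 (0%), whereas 2557 genes (22.3%) had an unadjusted p under 0.05, of which 1479 (12.9%) were higher and 1078 (9.4%) lower in OMVSSDC. The smallest adjusted p was 0.0879, shared by 10 genes, among them Rsad2, Mx1, Irf7 and Sh2d6, which were higher in OMVSSDC, and Idi1, Fads2, Scd2, Lrp8 and Cyp51, which were lower. Other fits gave other counts. DESeq2 on the same 6 libraries called 443 genes (242 higher, 201 lower), and limma voom with sample quality weights called 6945 (3536 higher, 3409 lower). When all 9 libraries entered edgeR's fit, so that PBSDC contributed to the estimate of the spread, 226 genes passed (1.97%): 99 higher (0.863%) and 127 lower (1.11%) in OMVSSDC. All 226 were among the genes whose groups did not overlap, and 9 higher and 6 lower genes differed by over 2-fold. Without OMVSSDC replicate 3, edgeR called 6451 genes (56.2%), 3225 higher (28.1%) and 3226 lower (28.1%), and replicate 3 alone against ZJDC gave 105 (0.915%). The count of calls thus ranged from 0 to 6945 with the libraries and the estimate of spread that entered, and the values of each library are given first below.

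The distances between the groups were small. Among the genes with all OMVSSDC libraries above, the median size of the log2 fold change (OMVSSDC minus ZJDC) was 0.34 and the median gap between the nearest libraries of the 2 groups was 0.08 on the log2 scale. Among those below, the median size was 0.27 and the median gap 0.07. The gap exceeded 0.5 in 33 genes above and 16 below, and exceeded 1 in 0 genes. Over 2-fold differences in the group means were found in 45 genes above and 23 below. Soat2 and Ppib lay just inside the rule on the upper side: their lowest OMVSSDC and highest ZJDC libraries were both at 55.9 CPM for Soat2 and both at 40.2 CPM for Ppib, apart only in later digits. Rnf166 and Retreg1 lay just outside it, with the nearest libraries of the groups both at 19.2 and both at 175 CPM. Replicate 3 lay at a median of 55.7% of the way from the ZJDC mean to the mean of OMVSSDC 1 and 2 in the genes above, and at 48.4% in the genes below. In 311 of the genes above and 275 of the genes below it lay as far from ZJDC as the mean of the other two or farther. Scaling by library size alone in place of TMM moved the split from 1355 above and 1401 below to 1685 above and 1121 below, with a median log2 fold change over all genes of 0.0771 in place of 0.0131. Leaving out OMVSSDC 3 gave 4189 above and 4075 below, and leaving out ZJDC 3 gave 2163 and 2129. Leaving out OMVSSDC 1 gave 1588 and 1583, and OMVSSDC 2 1561 and 1569. Leaving out ZJDC 1 gave 1653 and 1655, and ZJDC 2 1683 and 1673. With fewer libraries to keep apart all these counts were higher than with all 6, and they differed with the library left out.

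**Figure D1:**
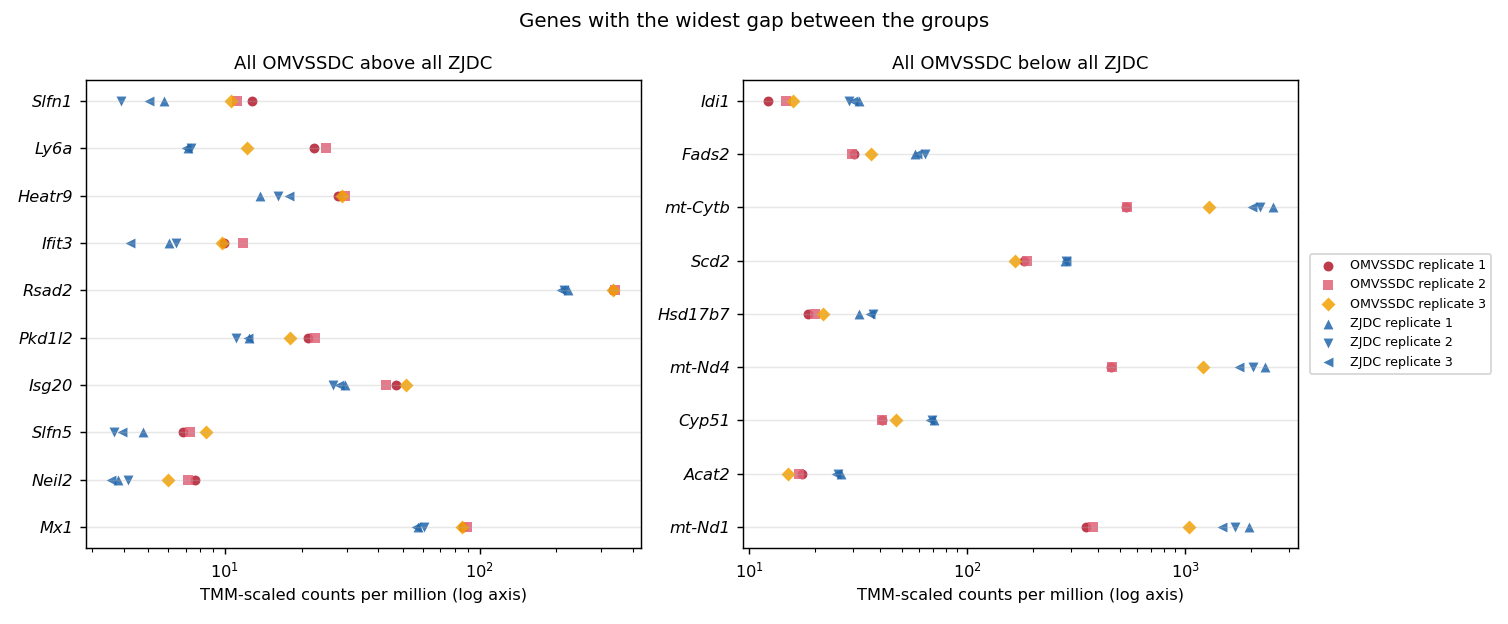
TMM-scaled CPM (log axis) in each of the 6 libraries for genes with the widest gap between the groups and a mean of at least 5 CPM, 10 above and 9 below; each point is a library. All OMVSSDC points lie to the right of ZJDC on the left panel and to the left of ZJDC on the right panel, and OMVSSDC replicate 3 stands midway for Ly6a, mt-Cytb, mt-Nd4 and mt-Nd1.

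The widest gaps on the upper side belonged mostly to genes known to be induced by interferon. Slfn1, a member of the Schlafen family, which interferon induces and which is known for restraining lymphocyte growth, had 12.8, 11.1 and 10.6 CPM in OMVSSDC 1 to 3 and 5.77, 3.92 and 5.05 CPM in ZJDC 1 to 3. All 3 OMVSSDC libraries were alike and lay clear of ZJDC, with a log2 fold change of 1.21 (SE 0.17). PBSDC had 0.735 ± 0.413 CPM (SD, n = 3). Ly6a, the surface antigen Sca-1, which interferon also induces, had 22.4, 24.9 and 12.2 CPM against 7.15, 7.37 and 7.03 CPM. Here replicate 3 was below the other OMVSSDC libraries, yet above all of ZJDC. Heatr9, which lies beside the chemokine gene Ccl5, had 27.8, 29.7 and 28.9 CPM against 13.8, 16.2 and 17.8 CPM, and 0.191 ± 0.233 CPM (SD, n = 3) in PBSDC. In the fit of all 9 libraries the edgeR adjusted p was 0.0355 for Slfn1, 0.0276 for Ly6a and 0.0492 for Heatr9, against 0.123, 0.169 and 0.116 in the fit of 6. Neil2, a DNA glycosylase of base excision repair, had 7.60, 7.14 and 5.95 CPM against 3.81, 4.16 and 3.57 CPM, and Pkd1l2, of the polycystin family, had 21.2, 22.5 and 18.1 CPM against 12.4, 11.1 and 12.4 CPM. The other 5 genes of the 10 were members of the antiviral list. By the table's own coordinates, which name no genome build, Slfn1 lies on chromosome 11 at 83007675 to 83013496, Heatr9 at 83402562 to 83413001 and Ccl5 at 83416604 to 83421344.

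Antiviral interferon-stimulated genes were the list with the most members above ZJDC. Of 46 tested members, 25 had all OMVSSDC libraries above all ZJDC libraries and 0 had all of them below, beside 11.8% and 12.2% of all genes. A further 6 were above in replicates 1 and 2 with replicate 3 inside ZJDC, which is near the 14.7% of all genes. The median log2 fold change was 0.36, against 0.01 over all genes tested. None passed in the fit of 6 libraries. In that of all 9, 12 were higher and 0 lower, beside 0.863% and 1.11% of all genes. With replicate 3 alone against ZJDC the list's median log2 fold change was 0.21. Without replicate 3 edgeR called 31 higher and 10 lower, beside 28.1% of all genes in each direction. Replicates 1 and 2 thus held antiviral genes on both sides of ZJDC. Both lay above it in 32 of the 46 and below it in 11, beside 36.5% and 35.5% of all genes.

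Rsad2 encodes viperin, a radical SAM enzyme that makes an antiviral nucleotide analogue. It had 334, 341 and 334 CPM in OMVSSDC and 221, 213 and 208 CPM in ZJDC, with 37.3 ± 3.74 CPM in PBSDC (SD, n = 3). The 3 libraries of each group lay close together, and the log2 fold change was 0.65 (SE 0.0665), with an edgeR adjusted p of 0.0879 in the fit of 6, 0.00896 in that of all 9 and 0.00122 for replicate 3 alone. Mx1, a GTPase that blocks influenza replication, had 85.6, 89.0 and 84.9 CPM against 57.0, 60.3 and 56.2 CPM. PBSDC, at 54.5 ± 3.80 CPM (SD, n = 3), was near ZJDC for this gene and not near OMVSSDC. Irf7, the transcription factor that amplifies type I interferon production, had 667, 658 and 638 CPM against 461, 441 and 459 CPM, and 161 ± 12.4 CPM in PBSDC (SD, n = 3).

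Isg20, an exonuclease that degrades viral RNA, had 47.0, 42.9 and 51.2 CPM against 29.6, 26.7 and 28.0 CPM, so that replicate 3 was its highest library. Ifit2, one of the proteins that recognise foreign RNA ends, had 177, 181 and 196 CPM against 138, 135 and 131 CPM, again with replicate 3 highest. Usp18, which removes ISG15 from proteins and dampens interferon receptor signalling, had 70.7, 68.4 and 61.4 CPM against 48.6, 43.5 and 43.1 CPM. The edgeR adjusted p in the fit of all 9 libraries was 0.0156 for each of these 3 genes. Ifit3, which works in a complex with Ifit1, had 9.96, 11.8 and 9.76 CPM against 6.06, 6.41 and 4.23 CPM. Slfn5, a Schlafen protein, had 6.86, 7.31 and 8.44 CPM against 4.79, 3.68 and 3.95 CPM.

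Other members separated the groups through replicates 1 and 2 for the most part. Isg15, the ubiquitin-like modifier, had 83.9, 85.4 and 53.7 CPM against 41.5, 40.04 and 38.1 CPM, and Oas1a, which makes the activator of RNase L, had 206, 207 and 108 CPM against 89.4, 89.5 and 100.5 CPM. In Oas1a replicate 3 lay only just beyond ZJDC. Bst2, or tetherin, which holds budding virions at the cell surface, had 459, 439 and 183 CPM against 152, 161 and 185 CPM, so its groups overlapped. Oasl2, a relative of the OAS enzymes, was 1 of the 11 members with replicates 1 and 2 below ZJDC, with 162, 172 and 274 CPM against 207, 208 and 192 CPM, and with replicate 3 above ZJDC.

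The RefSeq promoters (build GRCm38.p6) of the antiviral genes were searched for a motif like the interferon-stimulated response element, spelled GAAA NN GAAA without the spaces, on both strands of the 250 bases before the gene start. Of the 35 list members with a promoter entry 14 held it (40%), and of the 19 members with all OMVSSDC libraries above ZJDC 8 held it (42.1%). Over all tested genes with an entry the share was 3.38%, and it was 3.46% over all promoters listed. Among all genes above ZJDC it was 51 of 1087 (4.69%), and among all genes below 33 of 1123 (2.94%). A match describes these letters only and is neither a binding site nor a cause. Stretches of 70 bases around the matches are shown for 7 of these 8 genes, because they are the members above ZJDC that carry the motif near their start. They are read 5′ to 3′ on the strand of the gene, with the matched letters in capitals:
Rsad2, chr12:26456523-26456592, minus strand: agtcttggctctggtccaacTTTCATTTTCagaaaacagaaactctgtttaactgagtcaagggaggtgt
Ifit1, chr19:34640765-34640834, plus strand: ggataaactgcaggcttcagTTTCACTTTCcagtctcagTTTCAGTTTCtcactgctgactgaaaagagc
Ifit3, chr19:34583353-34583422, plus strand: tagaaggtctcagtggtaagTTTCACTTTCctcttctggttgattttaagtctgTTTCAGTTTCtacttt
Isg15, chr4:156200847-156200916, minus strand: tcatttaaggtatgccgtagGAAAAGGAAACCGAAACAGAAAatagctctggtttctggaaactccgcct
Oas1a, chr5:120907526-120907595, minus strand: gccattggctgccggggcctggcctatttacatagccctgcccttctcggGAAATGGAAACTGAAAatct
Oas3, chr5:120777685-120777754, minus strand: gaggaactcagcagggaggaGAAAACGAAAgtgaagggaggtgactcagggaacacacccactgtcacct
Slfn5, chr11:82951927-82951996, plus strand: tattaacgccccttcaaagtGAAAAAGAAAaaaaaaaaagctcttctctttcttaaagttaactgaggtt
In Isg15 the 3 matches overlap, as do the 2 of Oas1a, and in Rsad2, Ifit1 and Ifit3 the matches read on the opposite strand. Ifit1 itself had 22.4, 24.8 and 23 CPM against 19.1, 15.5 and 19.3 CPM, and Oas3 had 512, 491 and 435 CPM against 337, 372 and 380.5 CPM. Mx1 and Usp18 have no entry in the promoter table.

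MHC class I genes, whose products cut, transport and display peptides to CD8 T cells, lay above ZJDC in 13 of 25 tested members and below in 0. A further 5 were above in replicates 1 and 2 alone, beside 14.7% of all genes. The median log2 fold change was 0.40. In the fit of all 9 libraries 5 were higher and 0 lower, beside 0.863% and 1.11% of all genes. Without replicate 3 edgeR called 17 higher and 4 lower, beside 28.1% of all genes in each direction. All OMVSSDC libraries lay above ZJDC in 11.8% of all genes and below it in 12.2%. H2-T23, which encodes the nonclassical molecule Qa-1 that NKG2 receptors read, had 236, 244 and 129 CPM against 86.7, 94.7 and 99.1 CPM, with a log2 fold change of 1.12 (SE 0.229) and 26.8 ± 3.47 CPM in PBSDC (SD, n = 3). It was the member of this list with the widest gap, and its log2 fold change for replicate 3 alone was 0.46. The median of the list was 0.49 without replicate 3 but 0.13 for replicate 3 alone. H2-D1, a classical heavy chain, had 1359.7, 1306 and 880.2 CPM against 697, 737 and 802 CPM, and H2-K1, the other, had 309, 307 and 277 CPM against 267, 213 and 276 CPM. For H2-K1 the lowest OMVSSDC and the highest ZJDC library nearly met. Nlrc5, the transactivator of the class I genes, had 122, 131 and 107 CPM against 87.4, 87.8 and 91.3 CPM, and Tap1, a subunit of the peptide transporter, had 343, 342 and 249.9 CPM against 207, 220.0 and 229 CPM. The immunoproteasome subunit Psmb9 had 118, 120.0 and 46.7 CPM against 41.7, 44.6 and 53.5 CPM, with replicate 3 inside ZJDC. The heavy chain genes are near copies of each other, as are the Oas1 genes, so reads may be split between them and their values are uncertain to that extent. B2m, the light chain, overlapped in the opposite way, with 1766, 1826 and 2990.1 CPM against 2646, 2423 and 2346 CPM.

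The list of interferon-induced GTPases, which attack the vacuoles of intracellular microbes, also held interferon gamma response genes. It had 4 of 20 tested members above and 0 below, beside 11.8% and 12.2% of all genes. Its median log2 fold change was 0.15, which was 0.10 without replicate 3 and 0.26 with it alone. No member was called in the fit of all 9 libraries. Without replicate 3 edgeR called 8 higher and 3 lower, beside 28.1% of all genes in each direction. Gbp2 had 40.6, 39.2 and 41.6 CPM against 31.4, 34.4 and 31.4 CPM, and Gbp8 had 137, 141 and 163 CPM against 121, 116 and 113 CPM, with 7.90 ± 0.651 CPM in PBSDC (SD, n = 3). Both had replicate 3 as their highest library. For Gbp8 the edgeR adjusted p of replicate 3 alone was 0.0109.

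**Figure D2:**
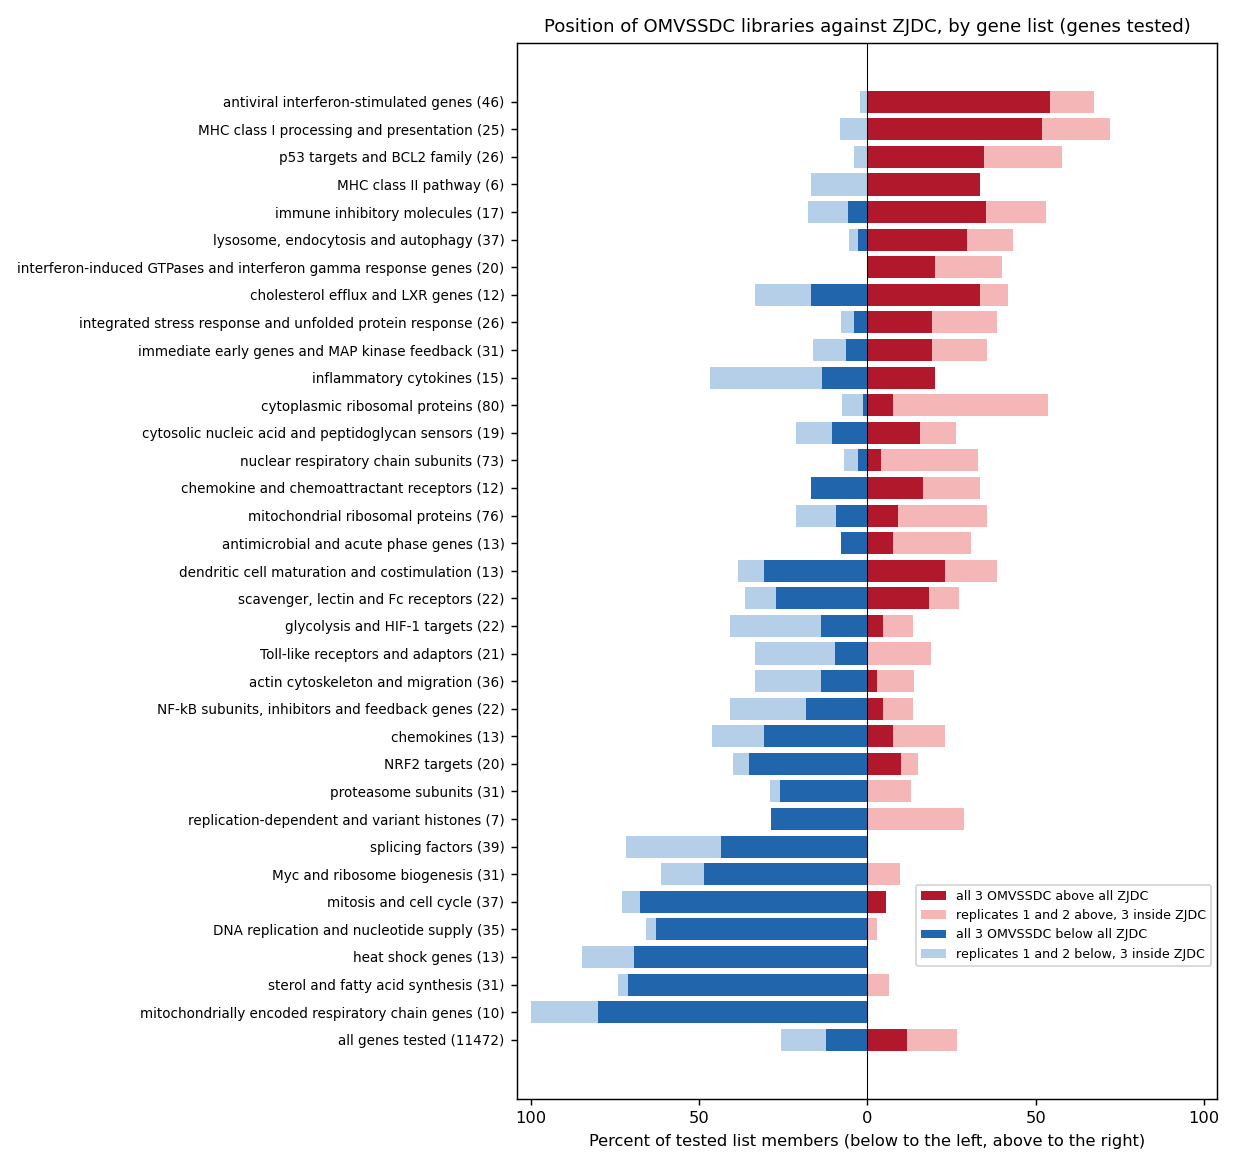
Share of the tested members of each gene list (number in brackets) with all 3 OMVSSDC libraries above (dark red) or below (dark blue) all ZJDC libraries, or with replicates 1 and 2 beyond ZJDC and replicate 3 inside it (pale). The bar of all 11472 genes at the bottom shows 11.8% above and 12.2% below, and the antiviral and MHC class I lists stand at the top with 25 of 46 and 13 of 25 above.

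A panel of 15 immune genes was reported whatever its values. Ccr7, which guides mature dendritic cells to lymph nodes, Ifnb1 and the MHC class II gene H2-Ab1 were below the count filter, with at most 7 counts in any of the 6 libraries. Of the other 12, 5 lay above ZJDC, 1 below and 6 overlapped, where 11.8% of all genes lay above and 12.2% below. Ccl5, a chemokine that draws T cells, had 359.7, 353 and 149 CPM against 110.4, 109 and 135 CPM, and 4.89 ± 0.4 CPM in PBSDC (SD, n = 3). Its log2 fold change was 1.28 (SE 0.315), and the edgeR adjusted p was 0.188 in the fit of 6 and 0.0479 in that of all 9. Replicate 3 stood much nearer to ZJDC than to the other OMVSSDC libraries. Cd40, the receptor through which T cells license dendritic cells, had 82.5, 80.2 and 58.8 CPM against 48, 53 and 51.3 CPM. Cd274, or PD-L1, had 145, 145 and 178 CPM against 136, 135 and 131 CPM, with replicate 3 the highest and called alone (edgeR adjusted p = 0.0175). Il12b, the p40 subunit of IL-12 and IL-23, had 1.33, 1.43 and 1.73 CPM against 0.98, 0.641 and 1.04 CPM. These are low levels, of 18, 25 and 25 counts against 17, 8 and 19.

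Tnf was the panel gene below ZJDC, with 569.8, 575 and 622 CPM against 657, 661 and 713 CPM and a log2 fold change of -0.20 (SE 0.0745). Il6 had 56.9, 61.9 and 63.9 CPM against 63.6, 64.4 and 66.4 CPM, and the costimulatory ligand Cd86 had 311, 312 and 339.9 CPM against 314, 306 and 311 CPM. Both overlapped, with log2 fold changes of -0.09 (SE 0.0761) and 0.05 (SE 0.0708). The costimulatory ligand Cd80, the chemokine Cxcl10 and the maturation marker Cd83 overlapped as well, with mean levels of 7.82 and 10.4, 8.70 and 11.1, and 1.0 and 0.343 CPM in OMVSSDC and ZJDC. Cd83 was near the floor, with 17, 21 and 8 counts in OMVSSDC and 6, 1 and 11 in ZJDC. The panel thus held genes on both sides.

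The wider immune lists were mixed in the same way. In dendritic cell maturation and costimulation 3 of 13 tested genes lay above and 4 below, beside 11.8% and 12.2% of all genes. Il15, which sustains natural killer and memory T cells, had 14.7, 13.8 and 12.7 CPM against 7.96, 10.01 and 10.8 CPM, whereas Tnfrsf9, the costimulatory receptor 4-1BB, had 17.3, 16.3 and 17.0 CPM against 25.2, 23.9 and 23.3 CPM. Icosl and Icam1, a costimulatory ligand and an adhesion molecule, were also below ZJDC, with log2 fold changes of -0.27 (SE 0.104) and -0.23 (SE 0.0864). Among inflammatory cytokines 3 of 15 lay above and 2 below. Another 5 were below in replicates 1 and 2 alone, beside 13.5% of all genes. Il10, the anti-inflammatory cytokine, had 1.18, 0.913 and 1.11 CPM against 0.461, 0.721 and 0.604 CPM. These are low levels, of 16, 16 and 16 counts against 8, 9 and 11. Il23a had 5.75, 6.17 and 8.37 CPM against 10.4, 9.77 and 8.57 CPM.

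Chemokines had 1 of 13 above, which was Ccl5, and 4 below, beside 11.8% and 12.2% of all genes. Ccl22, which draws regulatory T cells, had 1.18, 2.34 and 1.04 CPM against 3.69, 3.76 and 2.58 CPM, and the neutrophil chemokine Cxcl2 had 461, 497 and 679.5 CPM against 705, 693 and 737 CPM. Of 12 chemokine and chemoattractant receptors 2 lay above and 2 below. The 2 below were the receptors for microbial formyl peptides and for complement C5a. Fpr1 had 44.2, 42.7 and 43.4 CPM against 55.9, 63.6 and 60.6 CPM, and C5ar1 had 207, 217 and 258 CPM against 324, 332 and 316 CPM. Each had an edgeR adjusted p of 0.0276 in the fit of all 9 libraries, and each was also lower with replicate 3 alone (0.0487 and 0.0395). PBSDC had more of both, at 137 ± 9.01 and 581 ± 20.7 CPM (SD, n = 3).

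NF-kB subunits, inhibitors and feedback genes had 1 of 22 above and 4 below, and Toll-like receptors and adaptors 0 of 21 above and 2 below. Cytosolic nucleic acid and peptidoglycan sensors had 3 of 19 above and 2 below. Over all genes 11.8% lay above and 12.2% below, so these counts were not far from the shares over all genes. The median log2 fold change of the NF-kB list was -0.05, and -0.02 without OMVSSDC 2. In the receptor and sensor lists OMVSSDC 1 and 2 and OMVSSDC 3 had medians of opposite sign. Their medians over all 3 libraries were -0.01 and -0.01, but -0.16 and -0.12 without OMVSSDC 3 and 0.05 and 0.13 with OMVSSDC 3 alone. OMVSSDC 1 and 2 both lay below ZJDC in 13 of 21 receptor and adaptor genes, and OMVSSDC 3 lay above ZJDC in 12 of 19 sensor genes. Without OMVSSDC 1 or 2 both medians were above 0, at 0.01 and 0.04 in each case. With scaling by library size alone the medians of the 3 lists were 0.01, 0.04 and 0.05, where that of all genes was 0.08. Zbp1, a sensor of Z-form nucleic acid that interferon induces, had 124, 117 and 138 CPM against 99.9, 105 and 101 CPM, and Nod1, which reads bacterial peptidoglycan, had 16.3, 16.2 and 13.4 CPM against 10.6, 12.2 and 9.06 CPM. Immune inhibitory molecules lay above in 6 of 17 and below in 1, with a median of 0.21 that was 0.10 with the gene length trend removed, 0.14 with limma voom and 0.07 for replicate 3 alone. Vsir, the checkpoint VISTA, had 96.5, 94.2 and 88.8 CPM against 74.7, 76.7 and 76.3 CPM. Antimicrobial and acute phase genes had 1 of 13 on each side. Acod1, which makes itaconate, had 1374, 1377 and 1623 CPM against 1884, 1884 and 1921 CPM, and passed in the fit of all 9 libraries (edgeR adjusted p = 0.0359). Lcn2, the siderophore-binding lipocalin, had 3563, 3461 and 3466 CPM against 3091, 2997 and 2934 CPM. The 6 tested MHC class II genes had 2 above and 0 below, with a median log2 fold change of 0.00232, which was -0.04 without replicate 3, 0.18 with it alone and -0.12 once a gene length trend was removed. Immediate early genes and MAP kinase feedback genes, taken as 1 list, had 6 of 31 above and 2 below. Among them Fos had 34.7, 34.1 and 32.6 CPM against 22.6, 24.7 and 26 CPM, and Dusp4, a phosphatase of MAP kinases, passed in the fit of all 9 libraries with 455, 445 and 355 CPM against 304, 304 and 321 CPM (edgeR adjusted p = 0.0462).

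Sterol and fatty acid synthesis was the list with the most members below ZJDC in relation to its size among those made of nuclear genes. Of 31 tested members 22 had all OMVSSDC libraries below all ZJDC libraries and 0 had all of them above, beside 12.2% and 11.8% of all genes. The median log2 fold change was -0.415. In the fit of all 9 libraries 13 were lower and 0 higher, beside 1.11% and 0.863% of all genes. With replicate 3 alone against ZJDC the median log2 fold change was -0.425. Without replicate 3 edgeR called 22 lower and 3 higher, beside 28.1% of all genes in each direction. Replicate 3 lay at a median of 123% of the distance of replicates 1 and 2 from ZJDC in these 22 genes. In this list, unlike in the genes below ZJDC as a whole at 48.4%, replicate 3 was as far from ZJDC as its companions; the difference between the lists was not tested.

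Idi1, the isomerase that supplies both isoprenoid building blocks, had 12.2, 14.8 and 15.8 CPM in OMVSSDC, 32.1, 28.7 and 30.1 CPM in ZJDC and 60.8 ± 3.71 CPM in PBSDC (SD, n = 3). All 3 OMVSSDC libraries were near the same low level, and the log2 fold change was -1.08 (SE 0.121), with an edgeR adjusted p of 0.0879 in the fit of 6 libraries, 0.00723 in that of all 9 and 0.00753 for replicate 3 alone. Scd2, a desaturase that makes monounsaturated fatty acids, had 181, 188 and 166 CPM against 281, 285 and 284 CPM and 489 ± 46.9 CPM in PBSDC (SD, n = 3). For Scd2 replicate 3 was the lowest OMVSSDC library, and its edgeR adjusted p alone was 0.000566.

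Fads2, a desaturase of polyunsaturated fatty acids, had 30.3, 29.7 and 36.2 CPM against 57.6, 63.7 and 58.9 CPM. Cyp51, which removes a methyl group from lanosterol, had 40.7, 40.8 and 47.3 CPM against 70.5, 68.6 and 67.4 CPM, and Hsd17b7, a later step, had 18.7, 20.1 and 21.9 CPM against 32.1, 37.0 and 35.7 CPM. These 3 enzymes had log2 fold changes of -0.91 (SE 0.103), -0.68 (SE 0.0864) and -0.79 (SE 0.104). At the entry of the pathway, Acat2 had 17.6, 16.9 and 15.1 CPM against 26.2, 25.6 and 24.9 CPM, and Hmgcs1 had 31.7, 33.6 and 31.5 CPM against 44.6, 44.6 and 39.9 CPM. Fasn, which builds palmitate, had 219.8, 214 and 184 CPM against 276, 279 and 304 CPM. The acetyl-CoA carboxylase Acaca had 80.5, 79.4 and 78.6 CPM against 100.2, 95.4 and 98.4 CPM. Hmgcs1, Fasn and Acaca each passed in the fit of all 9 libraries, with edgeR adjusted p of 0.0373, 0.0355 and 0.0355.

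The regulators of the pathway stood apart less. Srebf2, the transcription factor of sterol genes, had 268, 265 and 238 CPM against 284, 319.9 and 321 CPM, a log2 fold change of -0.26 (SE 0.0861). Srebf1, its counterpart for fatty acid genes, overlapped with 86.4, 81.1 and 55.0 CPM against 62.7, 66.0 and 79.7 CPM, and Insig1, which holds the precursors in the endoplasmic reticulum, overlapped with 40.9, 36.0 and 30.1 CPM against 39.6, 39.9 and 41.6 CPM. In Srebf1 replicate 3 was the lowest of the 6 libraries, and replicates 1 and 2 were the highest. Lrp8, a lipoprotein and reelin receptor and no member of the list, was among the 10 genes with the smallest adjusted p, with 56.5, 59.7 and 65.8 CPM against 100.3, 96.7 and 92.1 CPM. Cholesterol efflux and LXR genes, which remove sterol from the cell, had 4 of 12 above and 2 below, beside 11.8% and 12.2% of all genes. Their median log2 fold change was 0.08 and ranged from 0.06 without ZJDC 3 to 0.25 without ZJDC 2. The promoter of Hmgcs1 (RefSeq, build GRCm38.p6) holds a sterol regulatory element-like motif, spelled TCACNCCAC and searched on both strands of the 250 bases before the start. The motif was in 1.17% of tested genes, in 8 of 1123 genes below ZJDC (0.712%) and in 13 of 1087 above (1.2%). Hmgcs1 is shown as the 1 match among 22 list members with a promoter entry (4.55%), a share that rests on 1 gene:
Hmgcs1, chr13:119690194-119690263, plus strand: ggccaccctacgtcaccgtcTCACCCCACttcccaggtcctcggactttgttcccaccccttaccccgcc
Scd2 and Sqle have no entry in that table.

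**Figure D3:**
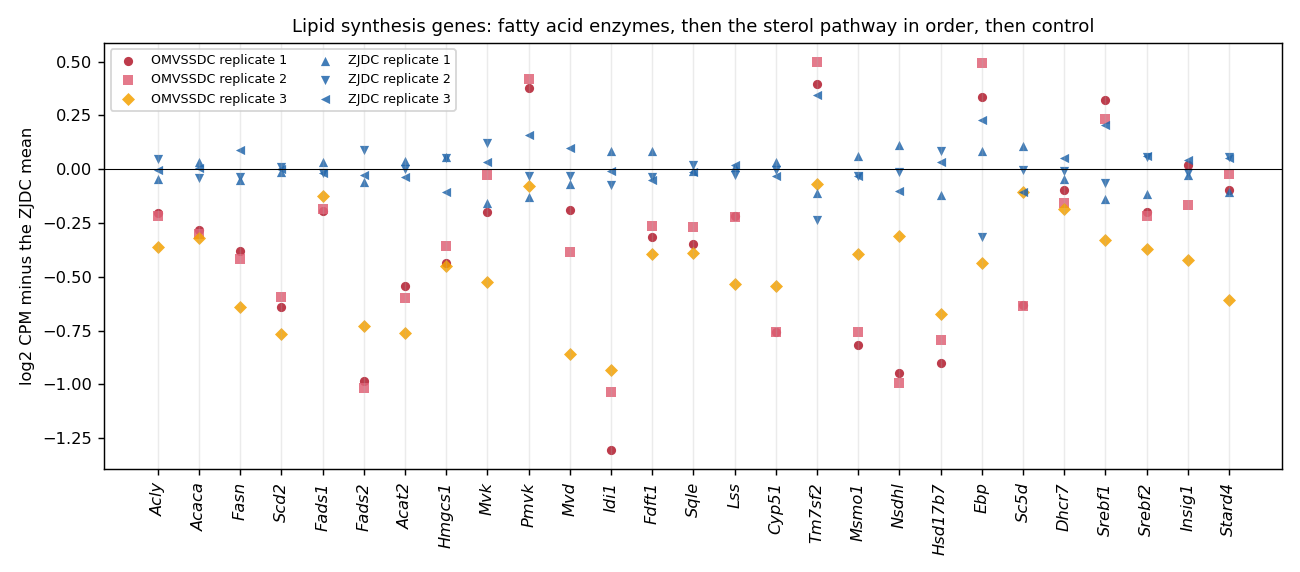
Level of 27 sterol and fatty acid genes in each of the 6 libraries, as log2 CPM minus the mean of the 3 ZJDC libraries; each point is a library and the line at 0 is the ZJDC mean. Idi1, Fads2 and Scd2 show all OMVSSDC points well below ZJDC, while Srebf1 and Ebp have OMVSSDC replicates 1 and 2 above the ZJDC mean and replicate 3 below it.

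Genes of cell division also lay mostly below ZJDC. Of 37 mitosis and cell cycle genes 25 lay below and 2 above, beside 12.2% and 11.8% of all genes. Their median log2 fold change was -0.435. Of 35 DNA replication and nucleotide supply genes 22 lay below and 0 above, with a median of -0.23. In the fit of all 9 libraries 11 and 5 of them were lower and 0 higher, beside 1.11% and 0.863% of all genes. The medians of the mitosis and replication lists were -0.49 and -0.20 without replicate 3 and -0.24 and -0.27 for replicate 3 alone. Without replicate 3 edgeR called 28 lower and 2 higher of the mitosis list and 19 lower and 5 higher of the replication list. It called 28.1% of all genes in each direction. Bub1, a kinase of the spindle checkpoint, had 81.5, 84.8 and 99.9 CPM against 135, 136 and 130.2 CPM, and 234 ± 2.35 CPM in PBSDC (SD, n = 3). Top2a, which untangles DNA before division, had 376, 389.9 and 473 CPM against 588, 586 and 564 CPM. Rrm1, the large subunit of ribonucleotide reductase, had 159, 165 and 184 CPM against 244, 240.5 and 236 CPM, and 549 ± 2.74 CPM in PBSDC (SD, n = 3). In each of these genes ZJDC lay between OMVSSDC and PBSDC. The edgeR adjusted p in the fit of all 9 libraries was 0.0156 for Bub1 and Rrm1 and 0.0308 for Top2a. With replicate 3 alone the log2 fold change was -0.42 for Bub1 and -0.38 for Rrm1.

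Mki67, the proliferation marker Ki-67, had 542, 543 and 1074 CPM against 1373, 1301 and 1170.3 CPM, so that replicate 3 lay much nearer to ZJDC. Ccne2, a cyclin of the entry into S phase, had 8.78, 9.42 and 14.1 CPM against 24.7, 19 and 18 CPM. Among the helicase subunits that license replication, Mcm3 had 215, 221 and 201 CPM against 265, 257 and 258 CPM, and Mcm4 had 96.1, 94.8 and 105 CPM against 127, 131 and 119 CPM. The 2 members of the mitosis list above ZJDC were Cenpa, the histone of centromeres, with 58.5, 58.2 and 49.3 CPM against 46.1, 42.4 and 45.5 CPM, and the cyclin Ccnd2, with a log2 fold change of 0.17 (SE 0.0752). Cdk1, the kinase that starts mitosis, overlapped, with 71.5, 71.0 and 37.7 CPM against 46.6, 48.3 and 51.0 CPM.

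Heat shock genes, which encode chaperones that fold proteins, lay below ZJDC in 9 of 13 tested members and above in 0. Over all genes 12.2% lay below and 11.8% above. The median log2 fold change of the list was -0.27. In the fit of all 9 libraries 4 members were lower, beside 1.11% of all genes. The median was -0.47 without replicate 3 and -0.13 for replicate 3 alone. Hspa8, the constitutive HSP70, had 844, 822 and 1076 CPM against 1542, 1506 and 1391 CPM and 1950.3 ± 61.5 CPM in PBSDC (SD, n = 3). Its log2 fold change was -0.69 (SE 0.116), and -0.46 for replicate 3 alone. Hsp90aa1 and Hsp90ab1, the cytosolic HSP90 genes, had 616, 632 and 753 CPM against 976, 945 and 891 CPM, and 1975, 1965 and 2631 CPM against 3185, 3095 and 2922 CPM. The endoplasmic reticulum chaperone Hspa5 lay on the other side, with 2300.0, 2272 and 1982 CPM against 1717, 1699 and 1717 CPM. It belongs to the integrated stress response and unfolded protein response list, of which 5 of 26 lay above and 1 below, with a median log2 fold change of 0.08. That median was 0.15 without replicate 3, 0.14 without ZJDC 3, 0.03 without OMVSSDC 1, 0.0045 for replicate 3 alone and -0.01 once a gene length trend was removed. Ddit3, the transcription factor CHOP of the same list, had 65.4, 60.9 and 58.1 CPM against 48.7, 46.8 and 46.7 CPM. Hspa5 and Ddit3 both passed in the fit of all 9 libraries (edgeR adjusted p = 0.0383 and 0.0466).

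Myc and ribosome biogenesis genes lay below in 15 of 31 and above in 0, and splicing factors below in 17 of 39 and above in 0. The medians were -0.19 and -0.21. Over all genes 12.2% lay below and 11.8% above. Ncl, the nucleolar protein nucleolin, had 615, 629.7 and 973 CPM against 1193, 1138 and 994 CPM, and Srsf6, a splicing regulator, had 179.9, 193 and 193 CPM against 241, 244 and 239 CPM. For Ncl the groups nearly met at replicate 3, and for Srsf6 replicate 3 was level with the rest of its group (edgeR adjusted p = 0.0295 in the fit of all 9 libraries and 0.0395 for replicate 3 alone). Proteasome subunits lay below in 8 of 31 and above in 0, while the list's median log2 fold change was 0.05, and 0.10 without replicate 3, 0.03 without OMVSSDC 2, 0.01 without OMVSSDC 1, -0.13 for replicate 3 alone and -0.06 once a gene length trend was removed. The regulatory subunit Psmd1 had 149, 143 and 140.0 CPM against 177, 187 and 181 CPM.

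The mitochondrially encoded respiratory chain genes had the largest median difference of the lists. Of 10 tested genes 8 lay below ZJDC and 0 above, beside 12.2% and 11.8% of all genes. The other 2 were below in replicates 1 and 2 alone, beside 13.5% of all genes. The median log2 fold change was -1.46, which was -0.445 for replicate 3 alone. mt-Cytb, the core of complex III, had 535, 539 and 1289 CPM against 2519, 2204 and 2028 CPM, and 13778 ± 906 CPM in PBSDC (SD, n = 3). mt-Nd1 of complex I had 351, 378 and 1043 CPM against 1953, 1697 and 1476 CPM, and mt-Nd4 had 459, 460.1 and 1210.3 CPM against 2319, 2043 and 1763 CPM. In these 3 genes replicate 3 stood between the other OMVSSDC libraries and ZJDC. In the fit of all 9 libraries mt-Cytb and mt-Nd4 passed, with edgeR adjusted p of 0.0383 and 0.0492, and mt-Nd1 had 0.0559. mt-Co1 of complex IV overlapped, with 14187, 14528 and 34619 CPM against 41120.0, 38079.9 and 32949 CPM.

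All mitochondrially encoded genes together took 1.81, 1.86 and 4.44% of the counts in OMVSSDC and 5.72, 5.27 and 4.60% in ZJDC, and 7.84, 7.23 and 6.89% in PBSDC. The exact permutation test (two-sided) of OMVSSDC against ZJDC gave p = 0.1, the smallest p that 20 permutations of 3 against 3 libraries allow. Without mt-Co1 the shares were 0.33, 0.345 and 1.04% against 1.75, 1.55 and 1.33%, with the same p of 0.1 in the exact permutation test. The heart and brain marker sums given above were ordered in a similar way over OMVSSDC, lowest in replicates 1 and 2. Their part in this result was not tested.

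**Figure D4:**
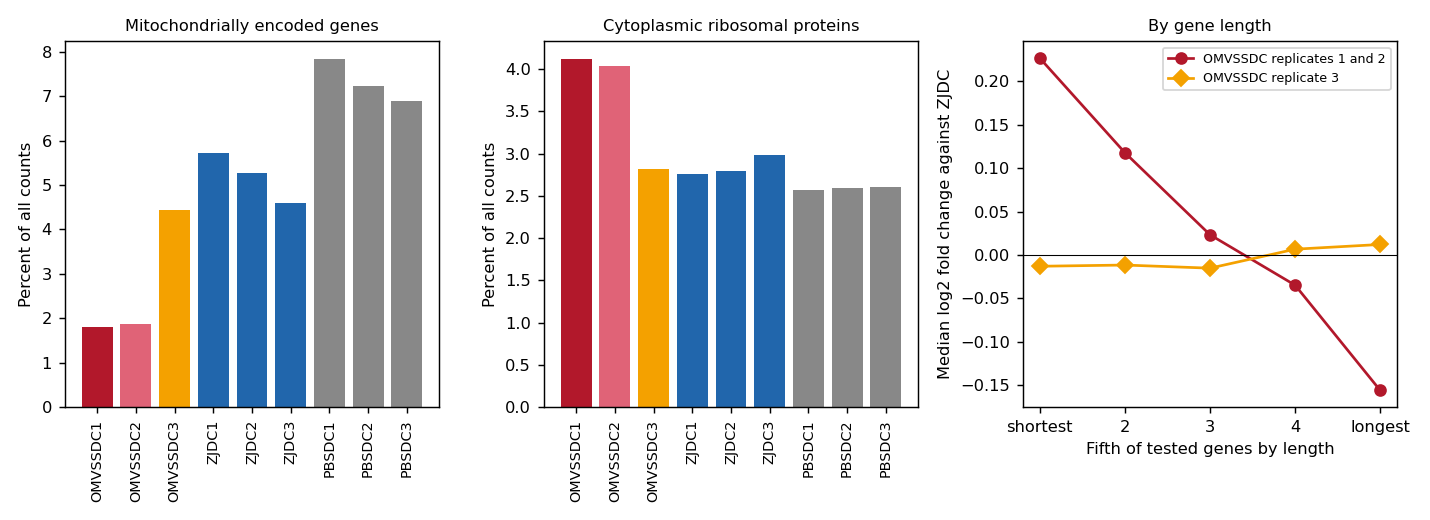
Left and middle, percent of all counts taken by mitochondrially encoded genes and by cytoplasmic ribosomal protein genes, 1 bar per library, including the 3 PBSDC libraries; right, median log2 fold change against ZJDC for 5 classes of the tested genes by length with equal numbers of genes, for OMVSSDC replicates 1 and 2 and for replicate 3. Replicates 1 and 2 stand at 1.81 and 1.86% mitochondrial and 4.12 and 4.03% ribosomal counts, and their line slopes down with gene length while that of replicate 3 stays near 0.

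Cytoplasmic ribosomal protein genes set replicates 1 and 2 apart from replicate 3. Their share of the counts was 4.12, 4.03 and 2.82% in OMVSSDC and 2.76, 2.80 and 2.98% in ZJDC, with an exact permutation p of 0.2 (two-sided). Only 6 of 80 tested genes had all OMVSSDC libraries above ZJDC and 1 below, fewer than the 11.8% and 12.2% among all genes. Another 37 were above in replicates 1 and 2 with replicate 3 inside ZJDC, beside 14.7% of all genes. Rplp1, a stalk protein of the large subunit, had 756, 706 and 228 CPM against 214, 218 and 261 CPM. Rps2 lay below ZJDC, with 77.8, 76.6 and 78.2 CPM against 88.5, 86.6 and 88.2 CPM. The nuclear subunits of the respiratory chain had the same split, with 3 of 73 above, 2 below and 21 above in replicates 1 and 2 alone. Ndufa1 of complex I had 19.3, 18.8 and 11 CPM against 8.82, 9.93 and 10.3 CPM, the opposite direction to mt-Nd1 of the same complex. Of 76 mitochondrial ribosomal protein genes 7 lay above, 7 below and 20 above in replicates 1 and 2 alone.

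Gene length moved with the comparison. The tested genes had a median length of 4546 bases in the table, those above ZJDC 4098 and those below 5276. With the genes in 5 classes of equal number by length, 14.4% of the shortest class lay above ZJDC and 7.14% below, and in the longest class 8.15% lay above and 16.4% below. The median log2 fold change of replicates 1 and 2 against ZJDC went from 0.23 in the shortest class to -0.16 in the longest, and that of replicate 3 from -0.01 to 0.01. After the length trend was removed from every library, 1342 genes lay above and 1475 below, and the directions of the interferon, MHC class I, sterol, mitosis, replication, heat shock and mitochondrially encoded list medians were unchanged.

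Among the remaining lists, lysosome, endocytosis and autophagy genes had 11 of 37 above and 1 below, with a median log2 fold change of 0.14, which was 0.09 without OMVSSDC 1 and 0.05 both with the gene length trend removed and for replicate 3 alone. Ctsh, a lysosomal protease, had 41.8, 39.0 and 32.5 CPM against 27.7, 25.9 and 28.4 CPM, and Map1lc3b, which marks autophagosomes, had 81.7, 75 and 62.2 CPM against 49.2, 53.2 and 54.0 CPM. Both passed in the fit of all 9 libraries (edgeR adjusted p = 0.0479 and 0.0496). p53 targets and BCL2 family genes had 9 of 26 above and 0 below, with a median of 0.14. Over all genes 11.8% lay above and 12.2% below. Phlda3, a p53 target that restrains AKT, had 50.7, 43.6 and 30.6 CPM against 23, 23.4 and 25.5 CPM, Cdkn1a, the cell cycle inhibitor p21, had 145, 148 and 151 CPM against 135, 131 and 133 CPM, and Bcl2, which blocks apoptosis, had 109, 106 and 103 CPM against 90.1, 87.1 and 94.8 CPM. Cdkn1a and Bcl2 had small differences, with log2 fold changes of 0.15 (SE 0.064) and 0.22 (SE 0.0694).

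NRF2 targets, which answer oxidative stress, had 2 of 20 above and 7 below, with a median of -0.09 that was -0.05 without OMVSSDC 2 and -0.15 with the gene length trend removed. Slc7a11, the cystine importer, had 176, 178 and 185 CPM against 226, 226 and 221 CPM, and 39.7 ± 2.18 CPM in PBSDC (SD, n = 3), so OMVSSDC lay between the other groups. Gsr, glutathione reductase, had 153, 155 and 179 CPM against 211, 213 and 212 CPM. Scavenger, lectin and Fc receptors had 4 of 22 above and 6 below, beside 11.8% and 12.2% of all genes. Marco, a receptor for bacteria and particles, had 721, 693 and 904 CPM against 1139, 1078 and 985 CPM and passed in the fit of all 9 libraries (edgeR adjusted p = 0.0479), whereas Trem2, a lipid receptor, had 38.4, 42.2 and 27.6 CPM against 20.9, 23.1 and 26.5 CPM. Glycolysis and HIF-1 targets had 1 of 22 above and 3 below, actin cytoskeleton and migration genes 1 of 36 above and 5 below, and histones 0 of 7 above and 2 below. Pkm, pyruvate kinase, had 1396, 1357 and 1499.6 CPM against 1794, 1784 and 1704 CPM.

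**Figure D5:**
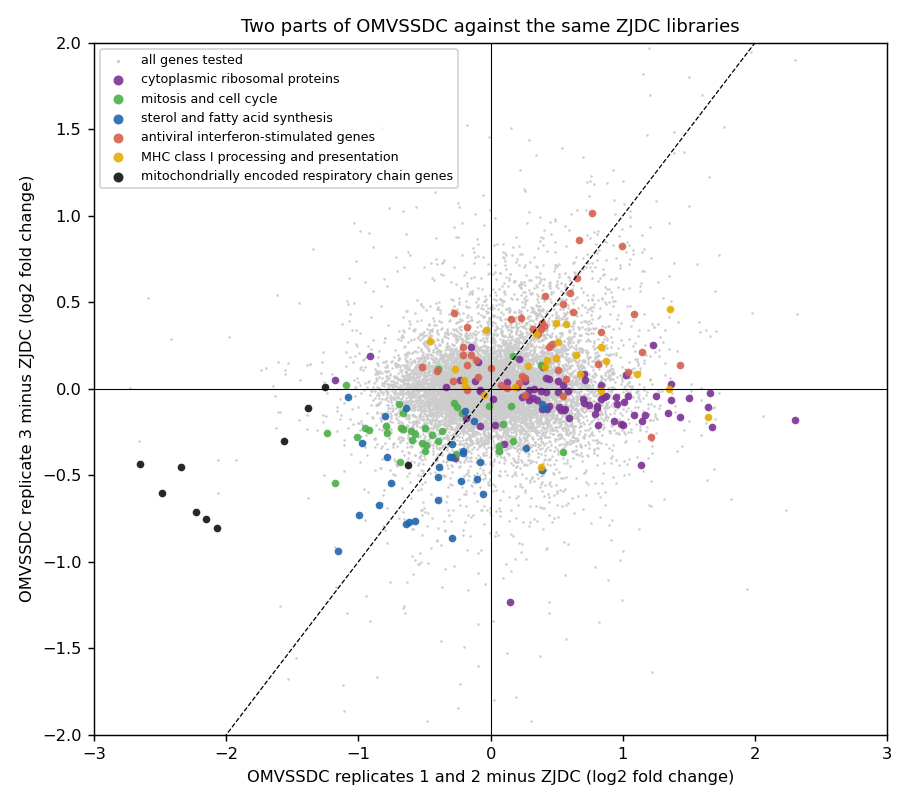
Log2 fold change of OMVSSDC replicates 1 and 2 against ZJDC (horizontal) and of replicate 3 against the same ZJDC libraries (vertical), 1 point per tested gene with 6 gene lists coloured; the dashed line marks equal values and 13 genes lie outside the axes. Sterol and antiviral genes lie off 0 on both axes, whereas ribosomal protein genes lie to the right at about 0 on the vertical axis.

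Replicates 1 and 2 lay beyond ZJDC with replicate 3 inside it in 1685 genes above (14.7%) and 1543 below (13.5%), more than the 1355 and 1401 in which all 3 lay on 1 side. Tspo, a protein of the outer mitochondrial membrane, had 295, 287 and 86.3 CPM against 68.2, 81.4 and 113 CPM, and Cdkn2d, an inhibitor of CDK4 and CDK6, had 51.9, 51.3 and 14.9 CPM against 13.4, 14.4 and 20.0 CPM. Trappc6a, of a vesicle tethering complex, had 43.5, 43.1 and 12.2 CPM against 10.4, 14.6 and 16.9 CPM. On the lower side Ccl3, a macrophage chemokine, had 135, 175 and 469 CPM against 519, 482 and 447 CPM. Replicates 1 and 2 lay close together in the first 3 of these genes but not in Ccl3, and replicate 3 lay within the range of ZJDC in all 4.

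Taken by itself, replicate 3 lay above all ZJDC libraries in 3457 genes (30.1%) and below all of them in 3389 (29.5%). Replicate 3 alone against ZJDC, with the spread taken from ZJDC, gave 61 genes higher (0.532%) and 44 lower (0.384%) at an edgeR adjusted p of 0.05. All 3 OMVSSDC libraries lay beyond ZJDC in the same direction in 35 of the 61 and 38 of the 44, and 47 were also called in the fit of all 9 libraries; all these fits share the ZJDC libraries. The lists with the most such members were sterol and fatty acid synthesis (0 higher, 13 lower), antiviral interferon-stimulated genes (9 higher, 0 lower) and DNA replication (0 higher, 4 lower). Some genes called with replicate 3 alone, chosen here after their values were seen, had replicates 1 and 2 elsewhere. Bcl6, a transcriptional repressor, had 87.2, 88.7 and 141 CPM against 91.1, 83.0 and 83.5 CPM, and Tlr8, a receptor for single-stranded RNA, had 52.1, 56.8 and 79.7 CPM against 61.2, 60.5 and 59.5 CPM. Lower in replicate 3 alone were Tuba1b, an alpha-tubulin, with 98.2, 92.0 and 53.5 CPM against 80.8, 79.1 and 86.1 CPM, and Ldha, lactate dehydrogenase, with 511, 502 and 329.8 CPM against 412, 431 and 469.6 CPM. In these 4 genes replicate 3 was the highest or the lowest of the 6 libraries.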

How the data were processed

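RNA from DC2.4 cells was sequenced in 9 libraries, 3 in each of the groups OMVSSDC, ZJDC and PBSDC, as read from the sample titles. The submitters' processing notes name fastp (0.22.0), HISAT2 (2.1.0) and HTSeq (0.9.1). No source used here names the genome build, the annotation or the strand setting. The deposited table holds whole-number read counts per gene, which the authors did not normalize further. It also holds FPKM, made by the authors from those counts and not analysed here. Gene length, another column deposited by the authors, was used to order genes.

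Counts of OMVSSDC and ZJDC were tested in R 4.3.3 with edgeR 4.0.16 (TMM scaling, robust quasi-likelihood fit, 4 residual degrees of freedom, two-sided F-test). P-values were adjusted by Benjamini-Hochberg over 11472 genes with at least 10 counts in at least 3 of the 6 libraries, and genes passed at 0.05. Positions of libraries were read on log2 CPM (prior count 2). The SE was taken as the log2 fold change over the root of its F statistic. The filter needs 3 libraries, so a gene can pass it through 1 group only. Alternatives used DESeq2 1.42.0, limma 3.58.1, other scalings and filters, all 9 libraries, a replicate block, a gene length trend and left-out libraries. Figures were drawn in Python 3.11.15 with matplotlib 3.10.9. Only edgeR's fit of 6 libraries was tried on simulated counts, drawn with the spread of the ZJDC libraries. The uneven spread of OMVSSDC was not simulated, so that trial cannot decide between the counts of calls given here. Library totals of 12784931 to 18388959 counts limit precision at low counts, and 3 counts are 0.165 to 0.24 CPM.

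The genes, the gene lists and the rules were chosen with earlier results of these data known. Genes were named by 4 rules: the 10 widest gaps per direction (mean of at least 5 CPM), the panel of 15 genes, up to 2 members per list and direction by gap, and the 4 widest genes per direction with only replicates 1 and 2 beyond ZJDC. The rules asked for called genes. As no gene was called, they were applied without that condition, which was decided after this was seen. Other list members were named as examples after their values were seen. Some genes are not reported singly here; the counts of their lists include them.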

Additional observations from a re-analysis of the deposited data

How the results depend on the processing

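The count of genes called was 0 in edgeR's fit of 6 libraries and also with DESeq2's size factors, with scaling by library size alone, with at least 50 counts in 3 libraries, with the gene length trend removed, and with any library other than OMVSSDC replicate 3 left out. With no filter on low counts 5 genes were called (1 higher, 4 lower), with DESeq2 443 (242 higher, 201 lower), with limma voom and quality weights 6945 (3536 higher, 3409 lower), and with all 9 libraries in the fit 226 (99 higher, 127 lower). Leaving out single libraries gave 0 to 6451 calls, 0 to 3225 higher and 0 to 3226 lower, the upper values without OMVSSDC replicate 3. Replicate 3 alone against ZJDC gave 105 (61 higher, 44 lower), with its spread assumed to be that of ZJDC. Genes above ZJDC numbered 1355 and genes below 1401. Leaving out single libraries, an alternative chosen after seeing the data, gave 1561 to 4189 above and 1569 to 4075 below, with 2163 above and 2129 below without ZJDC replicate 3, and replicate 3 alone gave 3457 above and 3389 below. Fewer libraries make it easier not to overlap, but the counts also differed with the library left out. Of 126 named genes, 117 passed with limma voom and quality weights and 112 without OMVSSDC replicate 3. DESeq2 passed 55 of them, the fit of all 9 libraries 41 and the fit with no filter 5. Over all 11472 tested genes limma voom called 6945, the fit without replicate 3 called 6451, DESeq2 443 and that of all 9 libraries 226. Most named genes were picked by the distance between libraries in these same values, so high shares among them follow from that choice. With replicate 3 alone 7 turned their log2 fold change. Tspo went to -0.0249, Cdkn2d to -0.11, Rplp1 to -0.0227, Trappc6a to -0.20, B2m to 0.27, Ccdc122 to 0.15 and Tnnt2 to 0.048. All but B2m were named because replicate 3 lay inside the range of ZJDC, so a small value of either sign follows from that choice. For B2m the cause was not tested. Replicate numbers did not pair the libraries: deviations of same-numbered libraries correlated at -0.301, -0.109 and -0.404, and the fit with the replicate block also called 0 genes. DESeq2 gave no adjusted p for 1113 genes.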
